A study of Homo sapiens with 4 samples.

Results

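The genes described here are 10 genes known to respond to low oxygen, chosen by symbol from a table of 58740 genes: CA9, CA12, BNIP3, BNIP3L, NDRG1, EGLN3, VEGFA, ADM, ANGPTL4 and PLIN2. All 10 were found, each as a single entry, and their levels were read in spheroids of 4 established human colon cell lines, with 1 RNA-seq library per line. Healthy colon gave rise to HCEC-1CT, whose growth in culture rests on added CDK4 and TERT. The other 3 are cancer lines: HCT116 and DLD-1 were derived from primary tumours of the large bowel, and SW620 from a metastasis in a lymph node. The labels give every line as wild type and epithelial, and state the same 7 days of culture on low-attachment plates of 24 wells with 10% fetal bovine serum. Compact spheroids were picked by eye and RNA was pooled from 2 plates, so each library averages over many spheroids and over their outer and inner cells. No monolayer culture, oxygen measurement or culture at another oxygen level is among these groups, so a level cannot be assigned to hypoxia here.

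Cells sense oxygen through prolyl hydroxylases of the EGLN family, which mark the alpha subunits of the hypoxia-inducible factors (HIF) for removal through the VHL protein. When oxygen is short the alpha subunits persist, pair with ARNT and bind short sequences with the core ACGTG or GCGTG in their target genes. The targets include genes for acid handling, blood vessel signals, removal of mitochondria and lipid storage. In tumours and in dense spheroids the cells far from the surface are those in which this response is usually studied.

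The letters of that core were looked for in the window from 250 bases before to 50 bases after the start site of each gene, taken from RefSeq (GRCh38.p14), on both strands. Of the 10 genes, 7 have such a window in the table; BNIP3L, NDRG1 and VEGFA do not. ACGTG was present in 4 of these 7 (CA9, BNIP3, ANGPTL4 and PLIN2) and in 21.4% of all 35116 windows. GCGTG was present in 4 of 7 (CA12, BNIP3, ADM and PLIN2) and in 36.5% of all windows. A stretch CACGTG reads as ACGTG on both strands, and both matches of it were counted. The windows of CA9, BNIP3, PLIN2 and EGLN3 are shown because these are the genes, among those with a window, whose levels separated the cancer lines from one another by 4-fold or more. Each is written 5′ to 3′ on the strand of its gene, and capitals mark ACGTG or its reverse complement CACGT.
CA9, plus strand, chr9:35673678-35673977: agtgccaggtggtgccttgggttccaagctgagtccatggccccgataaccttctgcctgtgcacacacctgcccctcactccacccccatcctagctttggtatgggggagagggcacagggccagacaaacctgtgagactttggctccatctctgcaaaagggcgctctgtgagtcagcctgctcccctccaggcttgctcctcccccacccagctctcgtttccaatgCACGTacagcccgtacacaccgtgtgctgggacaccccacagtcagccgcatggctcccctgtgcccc
BNIP3, minus strand, chr10:131981874-131982173: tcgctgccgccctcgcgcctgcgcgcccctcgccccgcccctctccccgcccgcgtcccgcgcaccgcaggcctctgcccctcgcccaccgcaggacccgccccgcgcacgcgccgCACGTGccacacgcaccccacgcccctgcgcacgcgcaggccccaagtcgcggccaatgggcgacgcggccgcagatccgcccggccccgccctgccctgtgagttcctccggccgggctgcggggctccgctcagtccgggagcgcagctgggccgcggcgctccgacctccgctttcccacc
PLIN2, minus strand, chr9:19127443-19127742: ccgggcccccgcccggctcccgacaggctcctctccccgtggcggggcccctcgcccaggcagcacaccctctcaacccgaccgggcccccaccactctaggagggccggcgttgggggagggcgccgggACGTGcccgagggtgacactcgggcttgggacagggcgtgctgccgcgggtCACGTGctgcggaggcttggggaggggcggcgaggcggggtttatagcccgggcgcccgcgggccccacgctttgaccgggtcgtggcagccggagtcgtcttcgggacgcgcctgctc
EGLN3, minus strand, chr14:33951025-33951324: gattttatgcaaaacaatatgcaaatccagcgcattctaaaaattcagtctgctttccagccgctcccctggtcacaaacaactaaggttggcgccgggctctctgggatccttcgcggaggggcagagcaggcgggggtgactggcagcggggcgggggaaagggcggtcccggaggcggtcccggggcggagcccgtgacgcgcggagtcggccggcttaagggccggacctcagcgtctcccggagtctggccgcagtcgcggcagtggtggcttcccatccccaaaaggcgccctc
With position 1 as the first transcribed base and negative positions before it, the match of CA9 begins at -18, that of BNIP3 at -134 and those of PLIN2 at -120 and -69. In the EGLN3 window neither core occurs. These are matches of letters and not measured binding sites.

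Levels are given as FPKM, fragments per kilobase of transcript, scaled to library size, always in the order HCEC-1CT, HCT116, DLD-1 and SW620. The libraries corresponded to about 29500000, 25300000, 23400000 and 28700000 fragments, and 13289 to 14654 genes reached 1 FPKM. The labelled cell type was checked against 13 epithelial markers, whose summed FPKM was 7.94, 1649, 5652 and 6805; EPCAM, CDH1 and KRT19 were listed at 0 in HCEC-1CT. The sum of 14 fibroblast and pericyte markers was 1752, 31.3, 5.13 and 253 FPKM, so the library labelled HCEC-1CT carried little of the epithelial programme and much of the other. In SW620 the sum was mostly VIM, at 223 FPKM. In HCT116 it was mostly ACTA2, at 14.4 FPKM against 10.6 FPKM in HCEC-1CT, and COL1A1, at 12.1 FPKM. Of 8 endothelial and 8 immune markers, 6 and 6 were under 1 FPKM in HCEC-1CT. For 11 housekeeping genes the median log2 ratio to HCEC-1CT was 0.81, 0.62 and 0.79. Median-ratio scaling factors exceeded that of HCEC-1CT by 0.38 (HCT116), 0.41 (DLD-1) and 0.29 (SW620) log2 units, and the ratios below include that shift.

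Across the 4 lines the 10 genes did not share one order. HCEC-1CT had the highest level of 7 of them, DLD-1 of 2 and SW620 of 1, while DLD-1 had the lowest level of 4, SW620 of 3, HCT116 of 2 and HCEC-1CT of 1. Among all 9453 genes that reach 10 FPKM in any line, HCEC-1CT was highest for 18.0% and lowest for 45.5%. In the plot of levels by line, NDRG1, ANGPTL4 and BNIP3L stay within 4-fold, whereas CA9, CA12, BNIP3, EGLN3 and PLIN2 run from under 1 FPKM to 75.8 FPKM or more. A span of 4-fold or more, on the scale of FPKM plus 1, was found for 7 of the 10 genes and for 37.1% of those 9453 genes. Of the 10 genes, 5 were at 10 FPKM or more in every line (BNIP3L, NDRG1, VEGFA, ADM and ANGPTL4).

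**Figure D1:**
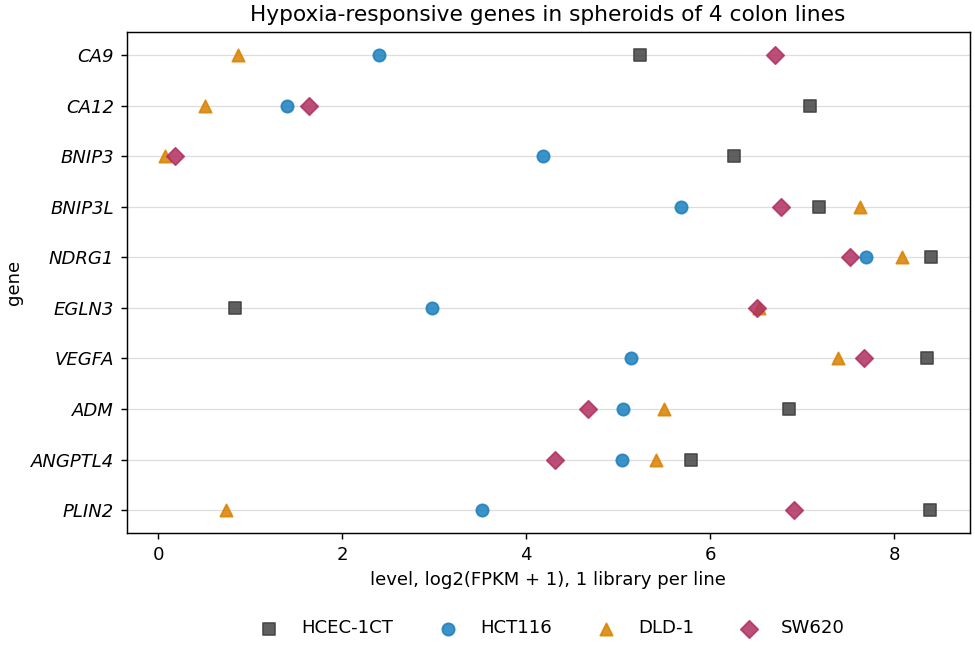
Levels of the 10 genes as log2(FPKM + 1) on the x axis, with 1 point per line and library. HCEC-1CT is the rightmost point for 7 genes and the leftmost for EGLN3, and DLD-1 is the leftmost for CA9, CA12, BNIP3 and PLIN2.

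Acid handling is the task of CA9 and CA12, carbonic anhydrases in the cell membrane that turn carbon dioxide and water into bicarbonate and protons outside the cell. CA9 (chromosome 9, 35673856 to 35681159, plus strand, ENSG00000107159) stood at 36.7, 4.27, 0.823 and 103 FPKM. SW620 was thus highest, above HCEC-1CT, and both other cancer lines were low. The DLD-1 value rests on about 31.1 fragments, for which counting error alone gives 0.560 to 1.17 FPKM (exact Poisson interval at the 95% level). The levels of the other 3 lines lie outside this interval. It rests on an approximate fragment number and does not cover variation between libraries or cultures, which 1 library per line cannot show. CA12 (chromosome 15, 63321378 to 63382161, minus strand, ENSG00000074410) stood at 135, 1.63, 0.422 and 2.12 FPKM, which sets HCEC-1CT alone above all 3 cancer lines. Within the pair, CA9 held 21.3%, 72.4%, 66.1% and 97.99% of the summed FPKM, so the surface enzyme of HCEC-1CT was mainly CA12 by RNA and that of SW620 mainly CA9.

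Of the 13 other carbonic anhydrases 5 reached 1 FPKM, and 2 of them, CA2 and CA11, were 4-fold higher in HCT116 and DLD-1 than in HCEC-1CT. Over all genes tested, 10.3% were 4-fold higher in HCT116 and 10.4% in DLD-1. CA2, the cytosolic enzyme of colon epithelium, was listed at 0, 20.1, 14.1 and 1.15 FPKM. CA11, a family member without enzyme activity, stood at 0.631, 12.5, 5.87 and 4.33 FPKM, while the mitochondrial CA5B stayed between 2.82 and 6.36 FPKM and CA13 between 0.111 and 4.66 FPKM. Summed over all 15 carbonic anhydrase genes the levels were 178, 49.0, 29.3 and 119 FPKM. CA12 made up 75.7% of this in HCEC-1CT and CA9 86.7% in SW620, whereas CA2 was the largest share in HCT116 (41.1%) and DLD-1 (48.1%).

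EGLN3 is the prolyl hydroxylase of the sensing machinery whose own gene is induced by low oxygen, and it acts as a brake on the response. The gene table gives EGLN3 (chromosome 14, 33924231 to 34462774, minus strand, ENSG00000129521) at 0.789, 6.84, 91.2 and 90.0 FPKM. DLD-1 and SW620 were nearly equal and far above HCT116, and HCEC-1CT was lowest. Even the HCEC-1CT value is not that of the known messenger RNA: 98.5% of it came from TCONS_00058282, a transcript that is absent from GENCODE 29. That transcript lies at 34434771 to 34462272, which is 483.7 kb beyond the 5′ end of the main form EGLN3-201 and on top of SPTSSA, a gene for sphingolipid synthesis on the same strand with 12.4, 10.1, 16.2 and 17.2 FPKM. It held 0.778, 1.58, 1.14 and 1.22 FPKM. Without it EGLN3 stood at 0.0118, 5.26, 90.0 and 88.7 FPKM, and the HCEC-1CT value then rests on about 1 fragment, with a counting interval of 0.00029 to 0.0661 FPKM.

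The other 2 hydroxylases of the family were steady beside it. EGLN1, the main oxygen sensor in most cells, stood at 15.5, 18.2, 21.8 and 14.4 FPKM, and EGLN2 at 8.52, 3.18, 8.23 and 4.36 FPKM. EGLN3 accordingly made up 3.18%, 24.3%, 75.2% and 82.7% of the summed FPKM of the 3 genes as tabulated, and 0.049%, 19.8%, 75.0% and 82.5% with its GENCODE 29 transcripts alone, so the most abundant hydroxylase transcript was EGLN1 in HCEC-1CT and HCT116 and EGLN3 in DLD-1 and SW620.

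BNIP3 and BNIP3L, also called NIX, are outer mitochondrial membrane proteins that recruit the autophagy machinery to mitochondria. BNIP3 (chromosome 10, 131966455 to 131982013, minus strand, ENSG00000176171) stood at 75.8, 17.1, 0.0512 and 0.135 FPKM. It was close to absent in DLD-1 and SW620, where about 3.42 and 11.9 fragments support it and the counting intervals are 0.0121 to 0.141 and 0.0694 to 0.236 FPKM. BNIP3L (chromosome 8, 26382898 to 26505636, plus strand, ENSG00000104765) stood at 144, 50.5, 197 and 108 FPKM. It was high in the 2 lines that had next to no BNIP3 and also in HCEC-1CT, which had the most BNIP3. BNIP3L held 65.5%, 74.7%, 99.97% and 99.9% of the sum of the pair. BNIP3 has 39 entries named as its pseudogenes; the highest value of any of them in any line was 0.503 FPKM, and the treatment of reads that match several of these copies is not known from the labels, so the BNIP3 level carries that uncertainty.

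**Figure D2:**
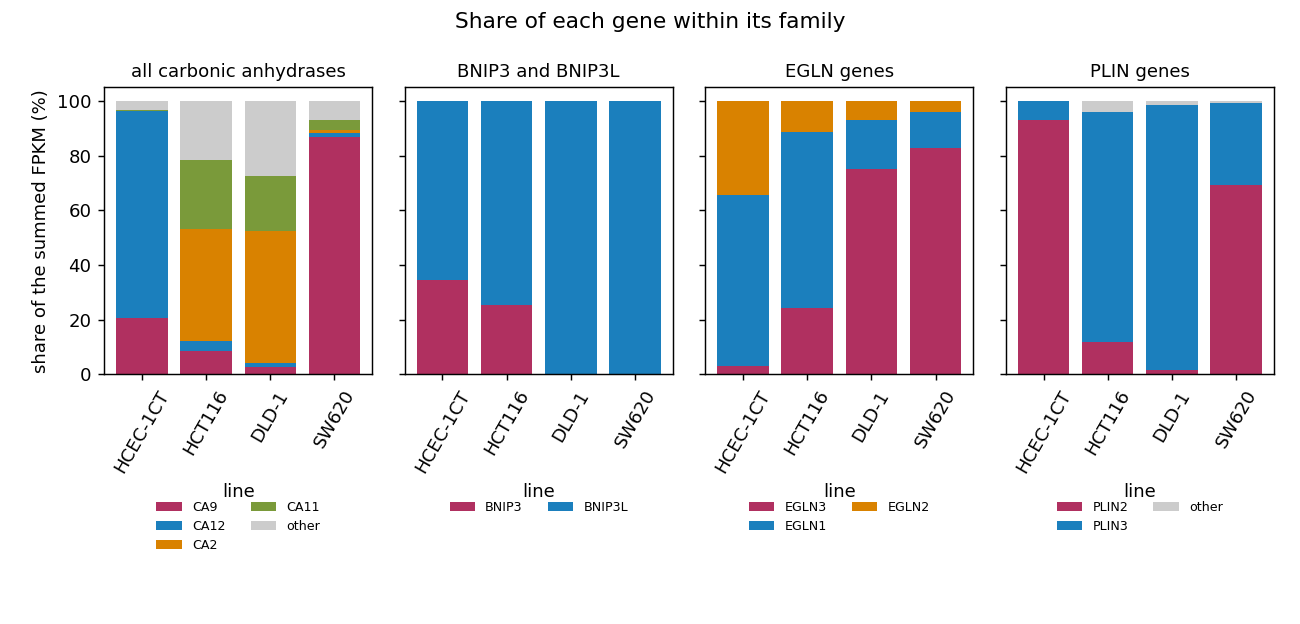
Share of each gene in the summed FPKM of its family, in percent, as 1 stacked bar per line, for the 15 carbonic anhydrases, BNIP3 with BNIP3L, the 3 EGLN genes (EGLN3 as tabulated, with TCONS_00058282) and the 5 PLIN genes. The BNIP3 share is 34.5% in HCEC-1CT and 25.3% in HCT116 and is not visible in DLD-1 and SW620.

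The secreted signals were present in every line. VEGFA, the main growth factor for blood vessels (chromosome 6, 43770184 to 43786487, plus strand, ENSG00000112715), stood at 326, 34.3, 166 and 203 FPKM. HCT116 was low and the other 3 lines lay within 1.96-fold of one another, on the scale of FPKM plus 1. VEGFA held 80.0%, 63.7%, 91.0% and 89.4% of the summed FPKM of the 5 VEGF ligands. VEGFB, a relative that is not known as a hypoxia gene, stood at 50.4, 14.1, 16.4 and 20.9 FPKM, and VEGFC, the lymphatic growth factor, at 30.4 FPKM in HCEC-1CT and was listed at 0 in the cancer lines. Of the receptor genes looked up with them, FLT1, KDR and FLT4 were at 0.188 FPKM or less in every line. NRP1 stood at 35.9, 2.60, 3.43 and 5.35 FPKM and NRP2 at 80.5, 1.06, 1.63 and 105 FPKM.

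ADM encodes adrenomedullin, a peptide that widens blood vessels (chromosome 11, 10304680 to 10307397, plus strand, ENSG00000148926), and stood at 115, 32.1, 44.3 and 24.6 FPKM. HCEC-1CT was highest, and the cancer lines lay within 1.77-fold of one another on the scale of FPKM plus 1. Its receptor CALCRL was at 1.44 FPKM or less in every line. Of the RAMP genes, RAMP2 and RAMP3 were listed at 0 throughout, and RAMP1 stood at 0.216, 7.20, 0.377 and 32.0 FPKM. The related peptide gene ADM2 stood at 0.321, 3.45, 1.43 and 2.53 FPKM, and ACKR3, a scavenging receptor, at 26.5 FPKM in HCEC-1CT and at 0.0632 FPKM or less in the cancer lines.

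ANGPTL4 encodes a secreted inhibitor of lipoprotein lipase (chromosome 19, 8363289 to 8374373, plus strand, ENSG00000167772) and is also a target of the PPAR receptors. It stood at 54.5, 31.9, 41.5 and 18.9 FPKM, the second narrowest spread of the 10 genes after NDRG1. Of the 7 other angiopoietin-like genes 1 reached 1 FPKM, namely ANGPTL2, at 30.6 FPKM in HCEC-1CT and at 0.426 FPKM or less in the cancer lines, where HCT116 was listed at 0.

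NDRG1 encodes a cytosolic stress protein that is induced by low oxygen and by metals (chromosome 8, 133237171 to 133302022, minus strand, ENSG00000104419). It stood at 338, 207, 270.1 and 182 FPKM, with ranks of 107, 204, 141 and 248 among the genes of each library. Its highest and lowest lines differed by 1.85-fold, the smallest span of the 10 genes. The other NDRG genes were far lower, with at most 18.6 FPKM for NDRG3, 13.4 FPKM for NDRG4 and 8.27 FPKM for NDRG2, each of them in HCT116.

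PLIN2 encodes perilipin 2, which coats lipid droplets and is made when cells store fat (chromosome 9, 19108375 to 19149290, minus strand, ENSG00000147872). It had the widest span of the 10 genes on the scale of FPKM plus 1, at 333, 10.5, 0.665 and 119.8 FPKM, with a rank of 110 in HCEC-1CT. DLD-1 had about 21.9 fragments, mostly not from the coding form, since PLIN2 transcripts annotated as protein coding reached 0.162 FPKM there against 309.6 FPKM in HCEC-1CT. Of 12 other lipid droplet genes 9 reached 1 FPKM. HCT116 had 1 that was 4-fold higher than in HCEC-1CT and 2 lower, DLD-1 had 0 and 1, and SW620 had 2 and 0. Over all genes tested, 10.3%, 10.4% and 10.3% were higher and 5.73%, 6.3% and 6.36% lower. A list of 9 genes is too small to set these counts apart from those shares. PLIN3, the perilipin found in most cells, stood at 25.1, 73.3, 36.3 and 52.0 FPKM. PLIN2 therefore made up 92.9%, 11.98%, 1.77% and 69.3% of the summed FPKM of the 5 perilipin genes. G0S2, an inhibitor of the lipid droplet lipase PNPLA2, was listed at 122, 0, 0.0985 and 30.0 FPKM, while PNPLA2 itself stood between 44.7 and 93.3 FPKM and the triglyceride synthesis gene DGAT1 at 7.503, 35.3, 20.8 and 7.33 FPKM.

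Each cancer line was then set against HCEC-1CT, which asks how the response genes differ between the carcinoma lines and the non-cancerous line under 1 culture protocol. Ratios are log2 ratios of FPKM plus 1, and genes were called from a 4-fold difference upwards if the higher library had 1 FPKM or more; with 1 library per line there is no test. All 3 comparisons share the HCEC-1CT library. In HCT116, 5 of the 10 genes were 4-fold or more lower (CA9, CA12, BNIP3, VEGFA and PLIN2) and 1 was higher (EGLN3), against 5.73% lower and 10.3% higher among all 16280 genes tested. In DLD-1, 4 were lower (CA9, CA12, BNIP3 and PLIN2) and 1 higher (EGLN3), against 6.3% and 10.4%. In SW620, 3 were lower (CA12, BNIP3 and ADM) and 1 higher (EGLN3), against 6.36% and 10.3%. Among genes at 10 FPKM or more in the higher library, where most of the 10 lie, the shares called lower were 7.89%, 8.51% and 8.33% and those called higher 12.4%, 13.7% and 13.7%.

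CA12 and BNIP3 were lower, and EGLN3 higher, in all 3 cancer lines by this rule, which 2.99% and 2.68% of genes met in the lower and the higher direction. The log2 ratios were -5.69, -6.58 and -5.45 for CA12, -2.08, -6.19 and -6.08 for BNIP3 and 2.13, 5.69 and 5.67 for EGLN3, in HCT116, DLD-1 and SW620. Of the 3 calls in HCT116, those of BNIP3 and EGLN3 lie near the threshold. With a pseudocount of 5 the HCT116 ratios were -1.87 for BNIP3 and 1.03 for EGLN3, and with median-ratio scaling that of EGLN3 was 1.91, all short of 4-fold; with GENCODE 29 transcripts alone it was 2.63. ADM in HCT116 lay just short of 4-fold at -1.81 and passed it with median-ratio scaling, at -2.19. The median log2 ratio of the 10 genes was -1.95, -1.16 and -1.18, and that of all genes tested 0.39, 0.43 and 0.29. NDRG1 and ANGPTL4 were lower than in HCEC-1CT in all 3 lines, by 0.32 to 1.48 on the log2 scale, without reaching 4-fold. The fibroblast and pericyte markers moved in the same direction as most of these genes, with 11 of 14 lower by 4-fold or more in all 3 cancer lines and sums given above; their part in the result was not tested. In such bulk samples fewer cells of a kind and less RNA per cell cannot be told apart.

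**Figure D3:**
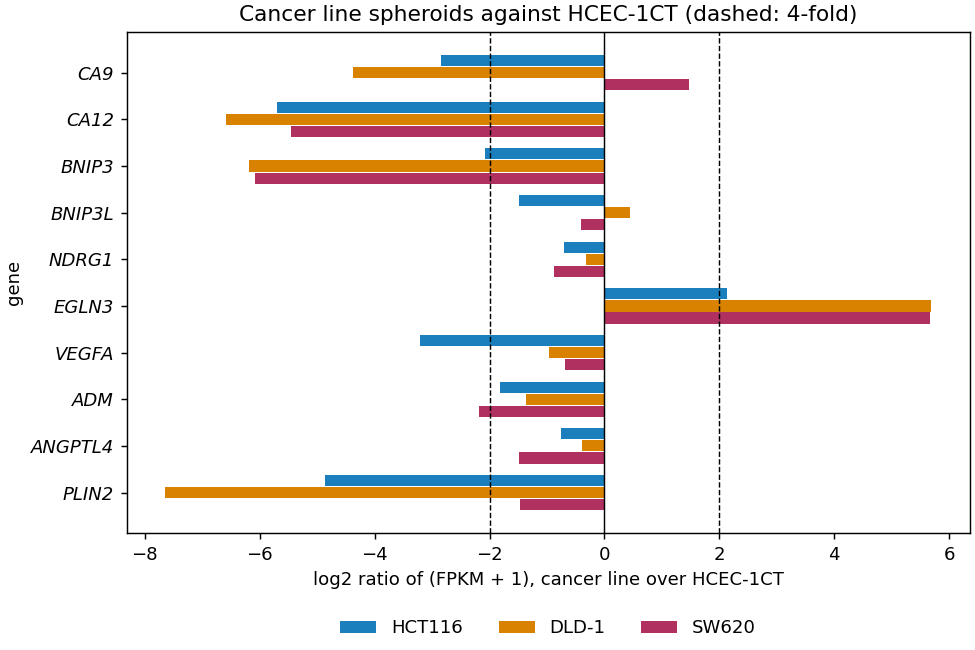
Log2 ratio of FPKM plus 1 of each cancer line over HCEC-1CT for the 10 genes, as bars, with dashed lines at 4-fold. CA12 and BNIP3 lie past the lower line and EGLN3 past the upper line in all 3 cancer lines, and CA9 points right in SW620 and left in HCT116 and DLD-1.

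The share of genes called higher depends on the scaling, which bears on how the counts above are read. With median-ratio scaling 1355 genes were higher and 1187 lower in HCT116, in place of 1684 and 933, and 1407 and 1284 in DLD-1, in place of 1722 and 1039. SW620 had 1479 and 1226 in place of 1665 and 1023. On the scale of equal library totals the numbers higher and lower were 1873 and 1679 in HCT116, 2417 and 1555 in DLD-1 and 2059 and 1664 in SW620. More genes passed the lower limit on that scale, with 19051, 19950 and 19164 tested in place of 16280, 16504 and 16095. These numbers therefore do not show the scaling alone. As shares they were 9.83% and 8.81% in HCT116, 12.1% and 7.79% in DLD-1 and 10.7% and 8.68% in SW620.

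The cancer lines were also compared with one another, since spheroids of all 3 were grown alike. Between HCT116 and DLD-1, 2 of the 10 genes were 4-fold or more higher in HCT116 (BNIP3 and PLIN2) and 2 higher in DLD-1 (EGLN3 and VEGFA), against 5.51% and 5.04% of all genes tested; with a pseudocount of 5 PLIN2 was at 1.45, short of 4-fold, and with equal library totals the numbers over all genes were 1075 and 1808 in place of 921 and 843. With equal totals 19642 genes were tested in place of 16718. Equal totals also put BNIP3L past 4-fold, at -2.32, which makes 3 higher in DLD-1. A pseudocount of 0.1 did so for CA9, at 2.24, which makes 3 higher in HCT116. Between HCT116 and SW620, BNIP3 was higher in HCT116 while CA9, EGLN3, VEGFA and PLIN2 were higher in SW620, which is 1 and 4 of 10 against 3.95% and 4.37%. Between DLD-1 and SW620, 0 genes were higher in DLD-1 and 2, CA9 and PLIN2, were higher in SW620, against 4.82% and 5.35%; at 2-fold ANGPTL4 was higher in DLD-1, with a log2 ratio of 1.09. BNIP3 was under 1 FPKM in both lines and was not tested there. CA9 and PLIN2 thus shared their order among the cancer lines, SW620 above HCT116 above DLD-1, with log2 ratios of DLD-1 over SW620 of -5.84 and -6.18. EGLN3 did not differ between DLD-1 and SW620 by more than 1.01-fold on the scale of FPKM plus 1.

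Of 16 genes for the HIF subunits, hydroxylases, VHL complex and co-activators, HCT116 had 2 that were 4-fold lower and 0 higher, DLD-1 had 1 and 0, and SW620 had 3 and 1. Over all genes tested, 5.73%, 6.3% and 6.36% were lower and 10.3%, 10.4% and 10.3% higher. Among genes at 10 FPKM or more in the higher library, 7.89%, 8.51% and 8.33% were lower. A list of 16 genes is too small to set its counts apart from these shares. Its median log2 ratios were -0.42, -0.12 and -0.21. HIF1A, the subunit that responds to low oxygen in most cells, stood at 119, 34.2, 41.5 and 70.7 FPKM and EPAS1, which encodes HIF-2 alpha, at 72.8, 15.3, 29.5 and 9.25 FPKM. Both were highest in HCEC-1CT. HIF alpha protein is set mainly by its breakdown, so these RNA levels do not give its activity. ARNT, the constant partner, lay between 11.6 and 18.9 FPKM, VHL at 11.5, 11.2, 10.7 and 23.4 FPKM and HIF1AN, which blocks HIF activity by another hydroxylation, between 8.32 and 15.2 FPKM. HIF3A, an alpha subunit with inhibitory forms, was the 1 gene of this list that was lower in all 3 cancer lines, at 7.17, 0.145, 0 and 0.228 FPKM.

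A further 24 genes induced by low oxygen, of which 23 reached 1 FPKM in some line, also split. HCT116 had 1 of them 4-fold higher and 5 lower, DLD-1 had 1 and 4, and SW620 had 4 and 5, with medians of -0.76, 0.25 and 0.22. Over all genes tested, 10.3%, 10.4% and 10.3% were higher and 5.73%, 6.3% and 6.36% lower. Among genes at 10 FPKM or more in the higher library, 7.89%, 8.51% and 8.33% were lower. Lower calls were more frequent in this list than these shares, though 23 genes are few. The higher calls are too few to set apart from their shares. LOX, an enzyme of collagen cross-linking, had levels of 149, 0, 0.0904 and 0.267 FPKM and TMEM45A, a membrane protein, stood at 30.0, 2.20, 1.33 and 0.481 FPKM. FAM162A, a mitochondrial protein, went the other way, at 4.71, 24.3, 46.02 and 27.3 FPKM, and was higher in all 3 cancer lines. Its log2 ratio in HCT116, 2.15, lies past 4-fold by less than the median-ratio scaling shift of 0.38.

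Of 18 glycolytic genes of the response, 2 were 4-fold higher in each cancer line and 1 lower, which is near the shares over all genes given above, with medians of -0.29, 0.81 and 1.03. SLC2A1, the glucose transporter GLUT1, stood at 40.0, 179, 489 and 1129 FPKM and ALDOC, an aldolase, at 11.8, 117, 60.7 and 86.6 FPKM. Both were higher in all 3 lines by the rule used here. Their smallest log2 ratios were 2.14 for SLC2A1, in HCT116, and 2.27 for ALDOC, in DLD-1. The median-ratio scaling shifts of these lines, 0.38 and 0.41, exceed the margins past 4-fold, so both calls depend on the scaling. In direction, SLC2A1 ran opposite to CA12, PLIN2 and BNIP3 when HCEC-1CT is set against the cancer lines. In the plot of gene lists, 9, 8 and 8 of the 10 genes lie below 0 in HCT116, DLD-1 and SW620. Over all genes tested, 37.8%, 34.5% and 40.6% were below 0. The other induced genes are spread over both directions, and the machinery lies closer to 0.

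**Figure D4:**
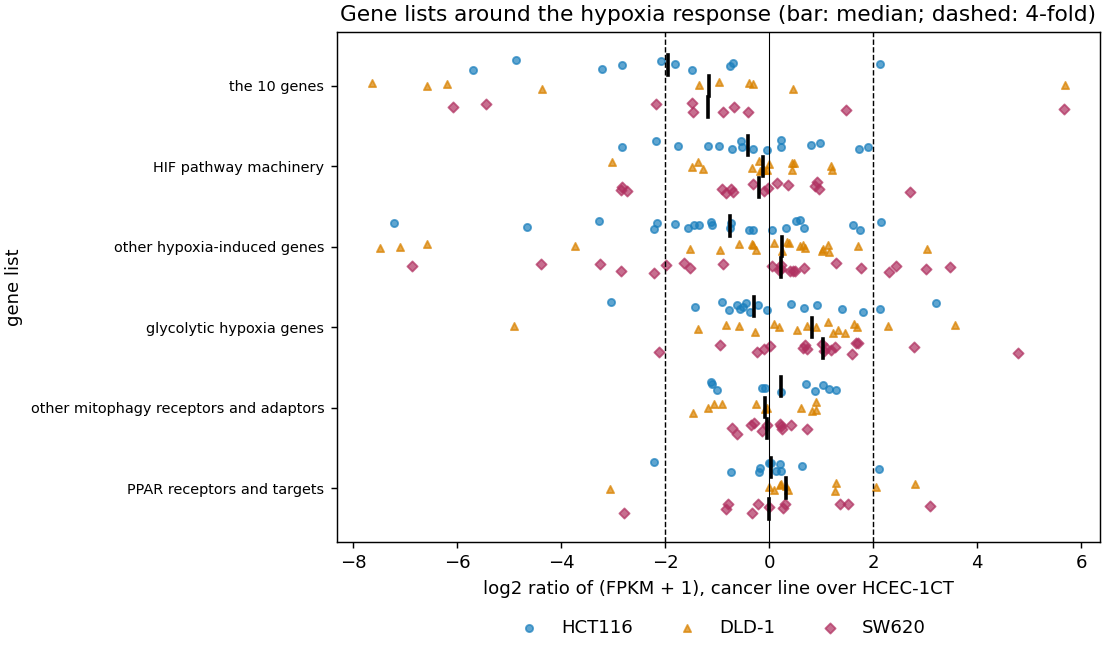
Log2 ratio of FPKM plus 1 over HCEC-1CT for the genes of 6 lists that reach 1 FPKM in at least 1 line, with 1 point per gene and cancer line, a black bar at the median and dashed lines at 4-fold. The medians of the 10 genes are -1.95, -1.16 and -1.18 and those of the glycolytic genes -0.29, 0.81 and 1.03 in HCT116, DLD-1 and SW620.

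The transcript table was used to see which forms of each gene carry these levels. Of the 9 genes at 5 FPKM or more in at least 2 lines, only ADM had a main transcript that differed between lines. ADM-201, which starts at 10304680, held 74.0%, 56.3% and 65.1% of ADM in HCEC-1CT, HCT116 and SW620 but 5.94% in DLD-1. There ADM-206, which starts at 10305084 and has the same coding length of 555 bases, held 42.3% and ADM-202, a short form, 32.4%. In FPKM, ADM-201 stood at 85.1, 18.1, 2.64 and 15.99 and ADM-206 at 19.6, 6.01, 18.7 and 6.90, so the 2 forms had different orders among the lines. In CA12, which reached 5 FPKM in HCEC-1CT alone, CA12-203 with 9 exons and a coding length of 849 bases held 64.1% and CA12-201 with 11 exons and 1062 bases 29.4%. CA12-203 was listed at 0 in the 3 cancer lines, and CA12-201 held 98.6% and 97.8% of the low levels in HCT116 and SW620.

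For EGLN3 the 2 lines with nearly equal levels had the same main form, with different shares of a form with a shorter coding length. EGLN3-201, with 5 exons and a coding length of 717 bases, held 82.7% in DLD-1 and 54.7% in SW620, and the single-exon form EGLN3-205, with a coding length of 444 bases, 8.60% and 41.8%. ANGPTL4-202 and the longer ANGPTL4-201, with coding lengths of 1104 and 1218 bases, held 67.5% and 26.5% in HCEC-1CT, 65.3% and 27.3% in HCT116 and 69.1% and 17.6% in DLD-1, but 45.0% and 42.05% in SW620. CA9 and BNIP3L were each carried by 1 form, with 99.7% for CA9-201 in HCEC-1CT and 98.7% or more for BNIP3L-201 in all 4 lines. PLIN2-201 held 90.6%, 77.9%, 23.9% and 90.8% of PLIN2, and in DLD-1, at 0.665 FPKM in all, the noncoding forms PLIN2-205 and PLIN2-208 held 37.9% and 36.4%.

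VEGFA and NDRG1, which were among the most abundant of the 10, had most of their FPKM in forms that are not annotated as protein coding. Transcripts annotated as retaining an intron held 85.1%, 84.9%, 80.2% and 89.5% of VEGFA, led by VEGFA-215 at 186, 15.7, 94.4 and 95.2 FPKM. VEGFA transcripts annotated as protein coding summed to 48.8, 5.17, 33.0 and 21.4 FPKM, which keeps HCT116 lowest but puts DLD-1 above SW620, and the log2 ratio of HCT116 over SW620 was then -1.86, short of 4-fold. Of NDRG1, transcripts annotated as protein coding held 20.9%, 20.6%, 10.9% and 17.0%, and the form NDRG1-212, which retains an intron, 52.5%, 40.4%, 36.1% and 48.0%. NDRG1-204, annotated as subject to nonsense-mediated decay, stood at 52.1 FPKM in HCT116 and was listed at 0 in the other lines. These splits depend on how the authors' program divided fragments among forms that share exons, and on the strand, since AL136131.3 on the other strand overlaps VEGFA with 20.4, 5.64, 15.6 and 21.6 FPKM.

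**Figure D5:**
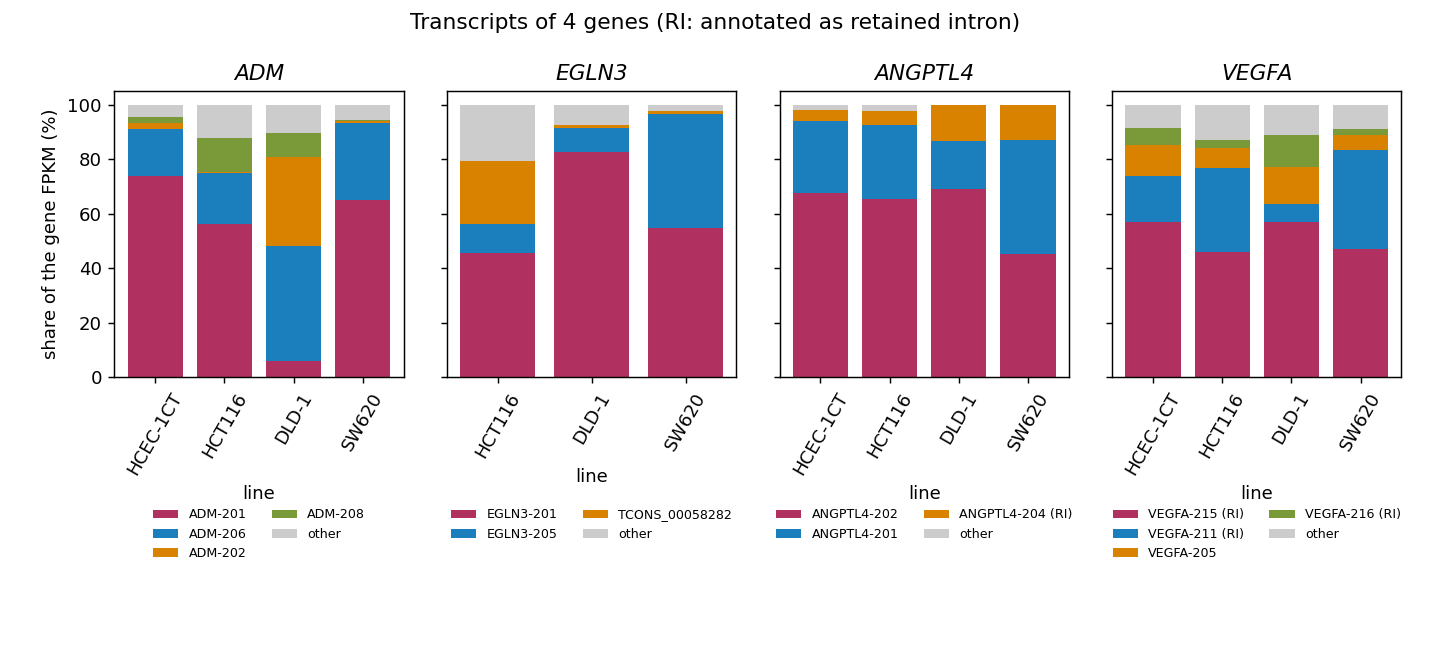
Share of the gene's FPKM held by each transcript, in percent, as 1 stacked bar per line, for ADM, EGLN3, ANGPTL4 and VEGFA; EGLN3 in HCEC-1CT is left out because its annotated forms reach 0.0118 FPKM. ADM-201 is at 5.94% in DLD-1, and EGLN3-205 makes up 41.8% in SW620 against 8.60% in DLD-1.

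For the 7 genes that spanned 4-fold or more, the genes with the most similar pattern were found among 9443 others at 10 FPKM or more in any line, by the distance between the 4 log2(FPKM + 1) values after each gene was centred on its mean. With 4 libraries such likeness is a description. The closest gene was SLC38A5 to CA9 (distance 0.83, at 25.7, 4.96, 0 and 105 FPKM), with FMNL1 and HIST1H2BI next. It was COL7A1 to CA12 (0.45), followed by SVEP1 and UCN2, and OSMR to BNIP3 (0.42, at 103, 18.6, 0.0527 and 0.0321 FPKM), followed by MRC2 and ANTXR1. NET1 was closest to EGLN3 (0.39), ahead of CRYBG2 and SMIM22, and GBE1 to VEGFA (0.47), ahead of MAML2 and DPYSL3. ADM had the nearest neighbours, namely AC034102.1 (0.13), LMAN1 and TM9SF1, and PLIN2 the most distant, SLC16A6 (1.43), CD82 and SPON2. The distance is not scaled to the span of a gene, and of these 7 genes ADM had the smallest span and PLIN2 the widest.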

How the data were processed

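RNA-seq of spheroids of 4 lines was used, with 1 library per line. The authors deposited FPKM values in 2 tables, of 58740 genes and 207345 transcripts. HISAT2, FastQC and the build hg38 are named, with no version, per the submitters' processing notes. The program behind the FPKM, its annotation and its strand setting were not given in the sources used here. A single unmatched column of values in each of them (1 per file) was left out. All 10 genes have the same coordinates in GENCODE 29, from which transcript types and lengths were taken. Approximate fragments came from the most frequent low step of FPKM times length in genes with a single transcript; exact Poisson intervals (95%) on them cover counting error only. Ratios used a pseudocount of 1, which understates changes of low genes, and no test was possible. The calling rule was run on simulated data with 200 genes changed 16-fold. Such changes lie well past the threshold, so this checks the code and not the calls near 4-fold. Alternatives are in the closing section.

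The 10 genes, 16 further lists of 186 entries and the rules were chosen with earlier results of these data known. Named genes were all 10; HIF1A, EPAS1, ARNT, VHL, EGLN1, EGLN2 and HIF1AN; in each list up to 4 genes called in all 3 cancer lines in 1 direction; in gene family lists the 4 with the highest FPKM; and the 3 most alike genes of each member spanning 4-fold. CDH1, VIM, ACTA2, COL1A1, FLT1, KDR, FLT4, RAMP2, RAMP3, SPTSSA, SLC2A3 and AL136131.3 were named after their values were seen. A result that this rule would name is not reported here. For ALDOA, which has 2 gene IDs, the ID in the gene name table was used. The work used Python 3.11.15, numpy 2.4.6, pandas 2.3.3, scipy 1.17.1 and matplotlib 3.10.9.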

Additional observations from a re-analysis of the deposited data

Results flagged for a closer look

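CA9 lay on opposite sides of HCEC-1CT in different cancer lines, past 2-fold in each: its log2 ratio was -2.84 in HCT116 and -4.37 in DLD-1 but 1.47 in SW620. SLC2A3, the glucose transporter GLUT3, did the same, with -1.43 for HCT116, -4.91 for DLD-1 and 1.67 for SW620, from levels of 53.8 FPKM in HCEC-1CT and 19.35, 0.819 and 173 FPKM in these lines. With 1 library per line neither difference was tested.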

How the results depend on the processing

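Each comparison was recomputed with 10 other settings, 3 of them chosen after seeing the data (scaling to the nuclear protein-coding total, transcripts annotated as protein coding only, GENCODE 29 transcripts only). With a pseudocount of 5, the number of the 10 genes 4-fold higher became 0 in HCT116 against HCEC-1CT and 1 in HCT116 against DLD-1. With median-ratio scaling it became 0 in HCT116 against HCEC-1CT. At 2-fold, 2 genes were higher and 5 lower in SW620 against HCEC-1CT, and 1 was higher in DLD-1 against SW620. With genes at 1 FPKM or more, 2 genes had main transcripts that differed between lines in place of 1; the cause, CA12, enters by the lower limit alone. The genes lower in all 3 cancer lines, 2 as reported, became 1 (CA12) with a pseudocount of 5 and 4 at 2-fold, where ADM and PLIN2 were added; EGLN3, the 1 gene higher in all 3, was lost with a pseudocount of 5 and with median-ratio scaling. The other counts of the 10 genes called in each comparison stayed within 1.5 times, and none of the log2 ratios called at 4-fold changed sign. No paired analysis was possible because each line has 1 library and the labels give no replicate numbers, and for the same reason no replicate could be left out. Among the 10 genes, counting intervals were widest, relative to the level, for the values under 1 FPKM. The lack of a second library limits every comparison.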

Other observations

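Beside BNIP3 and BNIP3L, 12 other receptors and adaptors of mitophagy were looked up, of which 11 reached 1 FPKM. In HCT116, DLD-1 and SW620, 0 of them were 4-fold higher and 0 lower than in HCEC-1CT, with medians of 0.22, -0.08 and -0.04. Of 11 measured PPAR receptors and targets, the group that shares ANGPTL4 and PLIN2 with the hypoxia response, 1, 2 and 1 were higher and 1, 1 and 1 lower. Over all genes tested, 10.3%, 10.4% and 10.3% were higher and 5.73%, 6.3% and 6.36% lower. With 11 genes in each list, neither set of counts stands apart from these shares. PPARG, the receptor of fat storage, stood at 5.20, 25.6, 42.02 and 51.8 FPKM and was higher in all 3 cancer lines. Its log2 ratio in HCT116, 2.10, lies past 4-fold by less than the median-ratio scaling shift of 0.38. PDK4, a target that holds back glucose oxidation, stood at 18.9, 3.29, 1.39 and 1.86 FPKM and was lower in all 3.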
